A study of Homo sapiens with 6 samples.

Results

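The genes described here are 10 genes of NF-kB signalling in HCT116 cells: the subunit genes RELA, RELB, NFKB1 and NFKB2, the feedback inhibitor genes NFKBIA, NFKBIE and TNFAIP3, and the target genes TNFAIP2, BIRC3 and ICAM1. They were chosen by name, and all 10 were matched among the 20263 genes of the deposited table. The table holds TPM values (a length-corrected share of the transcripts of each library) of 6 mRNA libraries of HCT116, a colorectal cancer line that has long been kept in culture. The 3 samples labelled WT have WT as the treatment in their labels, which names no exposure. The 3 samples labelled CSE were exposed to CSE. That abbreviation is taken to mean cigarette smoke extract, since the series title names smoking. The sources used here give no dose, exposure time, medium or solvent control, and all 6 samples are of this 1 line. The series title links smoking to the progression of colorectal tumours by way of STAT3 and EGFR, and does not name NF-kB.

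NF-kB proteins bind DNA as pairs of subunits and are held in the cytoplasm by IkB proteins until IkB kinase marks the IkB for destruction. RELA pairs mostly with the product of NFKB1, in the canonical route that TNF and IL-1 receptors trigger, while RELB pairs with the processed product of NFKB2, in the non-canonical route that MAP3K14 starts. The freed subunits switch on their own brakes, among them NFKBIA and TNFAIP3, and genes of adhesion and survival such as ICAM1 and BIRC3. The activity of the pathway is set by protein movement and decay, which mRNA levels do not show.

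The libraries carried the profile of an epithelial line: 8 of 10 epithelial markers had a mean of at least 1 TPM, with EPCAM at 306 to 360 TPM, while the intestinal genes CDX1 (listed at 0 in every library) and VIL1 (0.03 to 0.05 TPM) were at or near 0. The intestinal gene CDX2 was at 8.29 to 10.5 TPM. The leukocyte marker PTPRC was at 0 to 0.03 TPM and the stromal marker DCN was listed at 0 in every library. Of 10 leukocyte markers 1 had a mean of at least 1 TPM (CD68), and the list summed to 20.2 to 20.6 TPM in WT and 13.6 to 14.4 in CSE. Of 10 stromal and endothelial markers 1 did (COL1A1), with sums of 45.1 to 47.2 and 39.5 to 40.2 TPM. Mitochondrially encoded genes held 27.0% to 30.2% of the TPM in WT and 25.5% to 25.8% in CSE, and CSE replicate 3 stood apart from the other CSE libraries on the second principal component (-9.31 against 4.35 and 5.70). The depth of the libraries is unknown. In such bulk samples fewer cells of a type and less RNA per cell cannot be told apart.

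The starts of 4 of the genes are shown because they hold kB motifs while their mRNAs did not all change in 1 direction. Each line gives the 250 bases before a RefSeq start, for NFKB1 the first of 2, on the gene's strand and 5′ to 3′, and the capitals mark matches to the kB consensus decamer on either strand. The intervals on GRCh38.p14 are chr4:102501109-102501358 (plus strand) for NFKB1, chr14:35404750-35404999 (minus strand) for NFKBIA, chr6:137867009-137867258 (plus strand) for TNFAIP3 and chr11:102317234-102317483 (plus strand) for BIRC3.
NFKB1: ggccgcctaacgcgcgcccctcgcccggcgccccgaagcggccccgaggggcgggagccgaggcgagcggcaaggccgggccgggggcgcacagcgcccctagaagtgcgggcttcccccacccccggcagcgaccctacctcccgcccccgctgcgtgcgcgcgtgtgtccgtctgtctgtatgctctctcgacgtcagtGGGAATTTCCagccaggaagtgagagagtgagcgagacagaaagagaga
NFKBIA: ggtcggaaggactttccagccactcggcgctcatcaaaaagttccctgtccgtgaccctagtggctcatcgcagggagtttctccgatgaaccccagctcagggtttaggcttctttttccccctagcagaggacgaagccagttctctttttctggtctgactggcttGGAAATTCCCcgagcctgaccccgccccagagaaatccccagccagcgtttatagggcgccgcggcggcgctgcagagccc
TNFAIP3: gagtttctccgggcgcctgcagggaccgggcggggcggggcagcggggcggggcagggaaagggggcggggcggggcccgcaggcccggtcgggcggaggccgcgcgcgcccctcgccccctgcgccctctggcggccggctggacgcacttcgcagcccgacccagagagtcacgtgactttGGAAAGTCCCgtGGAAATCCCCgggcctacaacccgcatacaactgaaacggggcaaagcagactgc
BIRC3: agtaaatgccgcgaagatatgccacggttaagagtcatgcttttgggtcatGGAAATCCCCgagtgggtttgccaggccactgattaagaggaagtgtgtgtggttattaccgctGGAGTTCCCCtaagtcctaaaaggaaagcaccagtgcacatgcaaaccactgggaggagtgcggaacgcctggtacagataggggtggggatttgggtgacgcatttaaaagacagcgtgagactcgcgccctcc
NFKB1, which rose, held 1 match before the start shown and 0 before its other RefSeq start, and NFKBIA, which was not called, held 1. TNFAIP3 and BIRC3, which fell most, held 2 each, and 1 match was the same in both (GGAAATCCCC). The first base of the match lay 49 bases before the start in NFKB1 and 81 in NFKBIA. It lay 67 and 55 bases before it in TNFAIP3, and 199 and 135 in BIRC3. RefSeq gave windows for 8 of the 10 genes. The consensus was found in a window of 5 of them, the fifth being NFKB2 with 6 matches over 3 alternative starts. Among these was GGGACTTTCC at 21 bases. In NFKB2 the same bases (GGGAATTCCC at 107) were counted once on each strand, and the match at 106 overlapped them. Of the 3 starts of NFKB2, 1 had 0 matches. No window of RELA, TNFAIP2 or ICAM1 held it, but kB sites that vary from this consensus were not searched for. Of 10303 tested genes with a window 8.22% held the consensus. NFKB2 fell 1.08-fold, and without a match ICAM1 was called lower, TNFAIP2 higher and RELA was not called. Whether the number of matches goes with the change was not tested. The 10 genes were chosen for their part in NF-kB signalling, so their matches are a description and not an independent finding.

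Among all 10 genes, CSE was followed by small changes in both directions, with the inhibitor gene TNFAIP3 and the survival gene BIRC3 falling furthest and the subunit gene NFKB1 rising most. In limma's test over all genes, 2 of the 10 were called higher (NFKB1 and TNFAIP2), 5 lower (TNFAIP3, BIRC3, RELB, ICAM1 and NFKB2) and 3 were not called (RELA, NFKBIA and NFKBIE). The same test called 50.1% of the 12793 genes tested at an adjusted p under 0.05, 24.5% higher and 25.6% lower, so calls were common in this comparison. All 10 genes passed the filter on low values, with at least 1 TPM in every library. The median log2 fold change of the 10 (CSE minus WT, computed on log2(TPM + 1)) was -0.12, against -0.0039 over all genes tested. The median size of a change over all genes tested was 0.14, and only TNFAIP3 (0.50) and none of the other 9 exceeded the 90th percentile of 0.39. No label states whether the samples of a group were separate cultures, so the p-values reflect only how far these samples differ, and that may be technical variation.

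**Figure D1:**
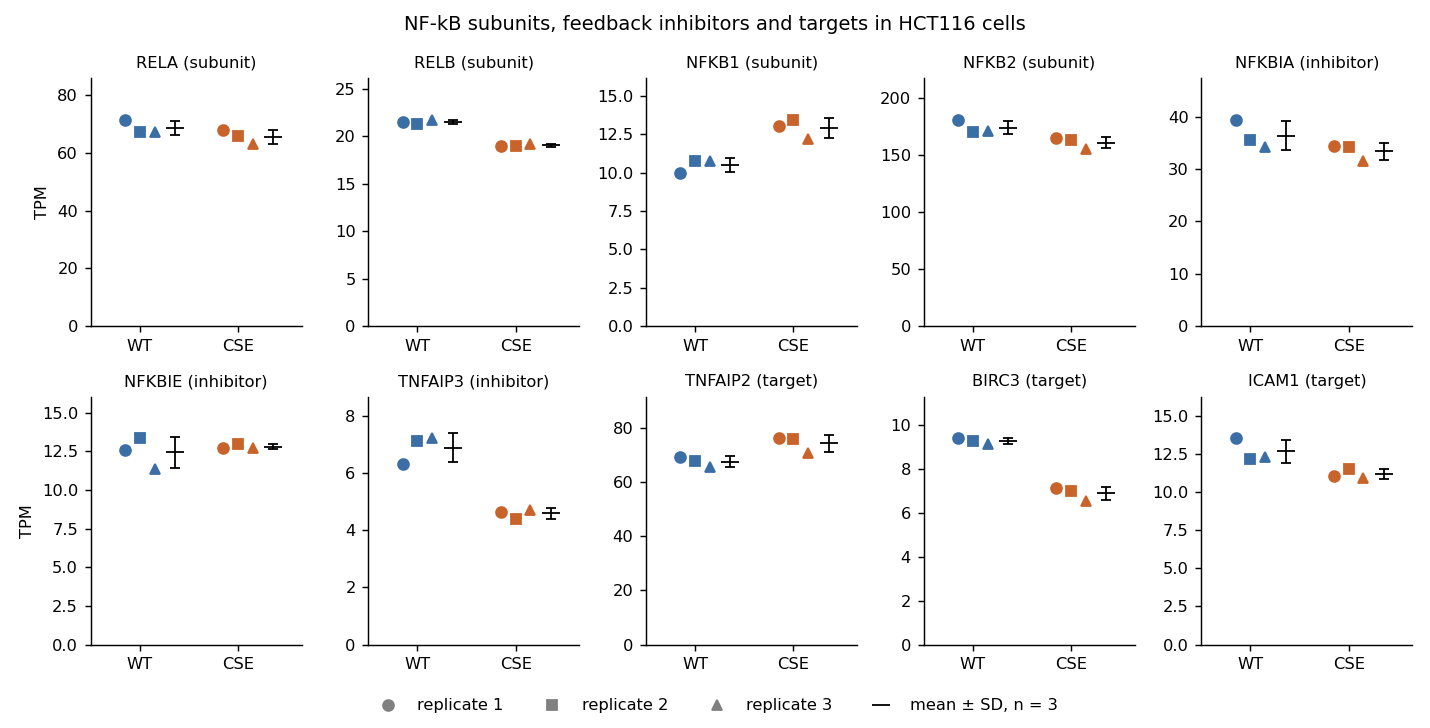
TPM of each gene (vertical axes, each starting at 0) in the 3 WT and 3 CSE libraries, with marker shapes for replicate numbers and bars for the mean ± SD (n = 3). The groups stand apart for TNFAIP3, BIRC3, RELB, ICAM1 and NFKB2 (CSE lower) and for NFKB1 and TNFAIP2 (CSE higher), and overlap for RELA, NFKBIA and NFKBIE.

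The 4 subunit genes did not move together: NFKB1 rose, RELB and NFKB2 fell slightly and RELA was not called. NFKB1 encodes the precursor of the subunit that pairs with RELA (ENSG00000109320, chromosome 4, 102501329 to 102617302, plus strand, GRCh38). It was at 9.97, 10.8 and 10.7 TPM in WT and at 13.0, 13.4 and 12.2 in CSE. Every CSE library was above every WT library. The rise was 1.23-fold, from 10.5 ± 0.453 to 12.9 ± 0.654 TPM (SD, n = 3 each; limma log2 fold change 0.27 with SE 0.0617, adjusted p = 0.000967).

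RELA, the main activating subunit of the canonical route (ENSG00000173039, minus strand of chromosome 11, 65653596 to 65663094), was at 71.5, 67.2 and 67.3 TPM in WT and at 67.9, 65.7 and 63.0 in CSE. The groups overlapped, since CSE replicate 1 lay above 2 of the WT libraries. The log2 fold change was -0.067 with a 95% interval of -0.16 to 0.025 (limma adjusted p = 0.218), an interval that ends below the rise measured for NFKB1. With mitochondrially encoded genes left out and the rest rescaled, RELA passed as lower (-0.12, limma adjusted p = 0.0137). It was smaller without WT replicate 1 (-0.038, limma adjusted p = 0.519) and without CSE replicate 3 (-0.039, 0.437).

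RELB and NFKB2, the pair of the non-canonical route, were both called lower. RELB (ENSG00000104856, chromosome 19, 45001430 to 45038198, plus strand) was at 21.6, 21.3 and 21.8 TPM in WT and at 19.0, 19.0 and 19.2 in CSE. These groups were tight and did not overlap. The fall was 1.13-fold, from 21.5 ± 0.240 to 19.1 ± 0.113 TPM (limma log2 fold change -0.17 with SE 0.0507, adjusted p = 0.00855).

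NFKB2, whose product also acts as an IkB until it is processed (ENSG00000077150, chromosome 10, 102394110 to 102402529, plus strand), was the most abundant of the 10 genes per length. It was at 181, 171 and 171 TPM in WT and at 165, 163 and 156 in CSE. The lowest WT and the highest CSE value were close, but the groups did not overlap. The fall was 1.08-fold, from 174 ± 6.01 to 161 ± 4.99 TPM (limma log2 fold change -0.11 with SE 0.0401, adjusted p = 0.0242). This call rested on single libraries: it was lost without CSE replicate 3 (-0.087, limma adjusted p = 0.0634) and without WT replicate 1 (-0.084, 0.0966). The filter on low values (0.0906 when removed) and the variance trend (0.085 when removed) also decided it.

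Among the feedback inhibitors, TNFAIP3 fell and the 2 IkB genes were not called. TNFAIP3 encodes a ubiquitin-editing enzyme that shuts off signalling from TNF receptors upstream of IkB kinase (ENSG00000118503, chromosome 6, 137867188 to 137883312, plus strand). It was at 6.32, 7.14 and 7.23 TPM in WT and at 4.66, 4.39 and 4.73 in CSE. The highest CSE library lay well below the lowest WT library. The mean fell by 33.4%, from 6.90 ± 0.501 to 4.59 ± 0.180 TPM (limma log2 fold change -0.50 with SE 0.0738, adjusted p = 9.81e-06). The size of this change was larger than that of 94.8% of all genes tested.

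NFKBIA encodes the classic IkB that is degraded and resynthesised in each round of signalling (ENSG00000100906, chromosome 14, 35401511 to 35404749, minus strand). It was at 39.4, 35.4 and 34.3 TPM in WT and at 34.3, 34.2 and 31.5 in CSE. The groups overlapped narrowly, with CSE replicate 1 just above WT replicate 3. The log2 fold change was -0.12 with a 95% interval of -0.23 to -0.0071 before adjustment (limma adjusted p = 0.0711). It passed as lower without WT replicate 3 (-0.16, limma adjusted p = 0.036), under quantile normalization (-0.12, 0.0485) and when mitochondrially encoded genes were dropped (-0.18, 0.0081). It was smaller without WT replicate 1 (-0.063, limma adjusted p = 0.362) and without CSE replicate 3 (-0.081, 0.222).

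NFKBIE, a further IkB gene (ENSG00000146232, minus strand of chromosome 6, 44258166 to 44265788), was at 12.6, 13.4 and 11.4 TPM in WT and at 12.7, 13.0 and 12.7 in CSE. All 3 CSE values lay inside the WT range. The log2 fold change was 0.039 with a 95% interval of -0.091 to 0.17 (limma adjusted p = 0.624), and it was negative without WT replicate 3 (-0.019) and when mitochondrially encoded genes were dropped (-0.015).

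Of the 3 targets, BIRC3 and ICAM1 fell and TNFAIP2 rose. BIRC3 encodes an inhibitor of apoptosis that acts as a ubiquitin ligase in TNF receptor complexes (ENSG00000023445, chromosome 11, 102317450 to 102339403, plus strand). It was at 9.41, 9.28 and 9.14 TPM in WT and at 7.12, 7.0 and 6.56 in CSE. The groups were far apart against their spread. The mean fell by 25.7%, from 9.28 ± 0.135 to 6.89 ± 0.295 TPM (limma log2 fold change -0.38 with SE 0.0648, adjusted p = 4.91e-05). BIRC2, its close paralog on the same chromosome, singled out here after its values were seen, had a mean of 38.3 ± 1.63 TPM in WT and 39.8 ± 1.45 TPM in CSE (limma log2 fold change 0.056, adjusted p = 0.347).

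ICAM1 encodes an adhesion molecule that leukocytes bind (ENSG00000090339, chromosome 19, 10270835 to 10286615, plus strand). It was at 13.6, 12.2 and 12.3 TPM in WT and at 11.1, 11.6 and 10.97 in CSE. The groups did not overlap, though WT replicate 1 was the highest by more than 1 TPM. The fall was 1.13-fold, from 12.7 ± 0.756 to 11.2 ± 0.306 TPM (limma log2 fold change -0.16 with SE 0.0611, adjusted p = 0.0293). The call was lost without WT replicate 1 (-0.12, limma adjusted p = 0.149), without CSE replicate 1 (-0.16, 0.0808) and without the filter (0.0734).

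TNFAIP2, a TNF-induced gene whose product takes part in membrane protrusions (ENSG00000185215, chromosome 14, 103123442 to 103137439, plus strand), went the other way. It was at 69.3, 67.8 and 65.6 TPM in WT and at 76.2, 75.9 and 70.7 in CSE. The groups did not overlap, with CSE replicate 3 nearest to WT. The mean rose by 9.93%, from 67.5 ± 1.89 to 74.3 ± 3.06 TPM (limma log2 fold change 0.13 with SE 0.0439, adjusted p = 0.0146). It was lost without WT replicate 3 (0.11, limma adjusted p = 0.0648), without CSE replicate 1 (0.12, 0.082), without CSE replicate 2 (0.12, 0.0622), without the filter (0.0696) and when mitochondrially encoded genes were dropped (0.077, 0.1).

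**Figure D2:**
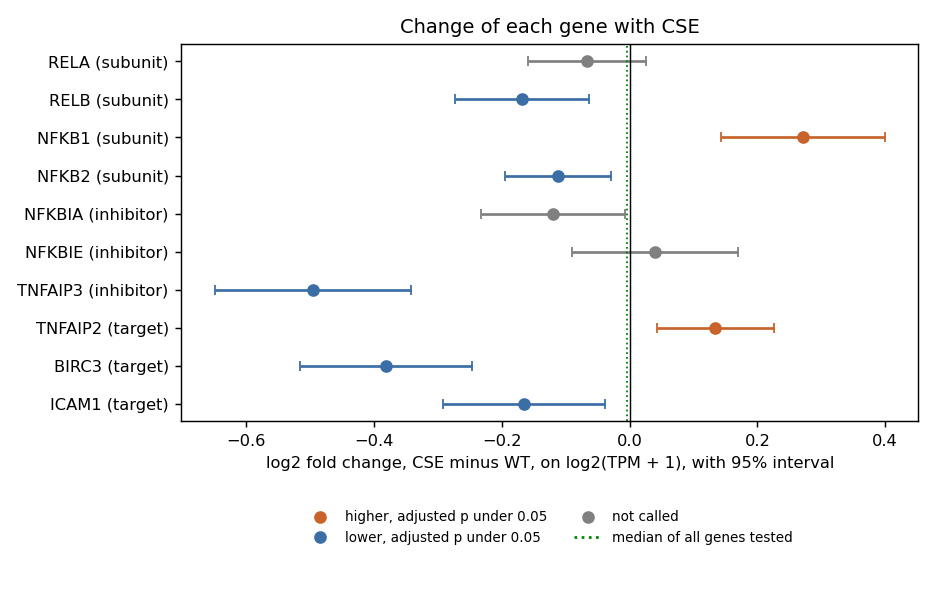
Log2 fold change (CSE minus WT, on log2(TPM + 1)) of each gene with its 95% interval before adjustment, coloured by the limma call over all genes (n = 3 per group), with the median of all genes tested as a dotted line. TNFAIP3 (-0.50) and BIRC3 (-0.38) lie furthest to the left and NFKB1 (0.27) furthest to the right.

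Set side by side, the subunits and the inhibitors with the targets both held rises and falls. The subunits had 1 gene higher, 2 lower and 1 not called, with a median log2 fold change of -0.089. The 6 inhibitors and targets had 1 higher, 3 lower and 2 not called, with a median of -0.14. The falls of TNFAIP3 and BIRC3 were the 2 largest changes of the 10, and the largest fall among the subunits was that of RELB (-0.17). Over all 10 genes the groups did not overlap for 7, with CSE higher for 2 and lower for 5. Over all genes tested they did not overlap for 57.4%, with CSE higher for 27.5% and lower for 29.9%.

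Ratios within a library do not depend on how libraries are scaled to each other. NFKB1 was at 0.140, 0.160 and 0.160 of the TPM of RELA in WT and at 0.192, 0.205 and 0.193 in CSE. TNFAIP3 was at 0.0884, 0.106 and 0.107 of RELA in WT and at 0.0687, 0.0668 and 0.0751 in CSE, and BIRC3 at 0.132, 0.138 and 0.136 in WT and 0.105, 0.107 and 0.104 in CSE. For these 3 genes the groups did not overlap relative to RELA, as they did not for TNFAIP2 (higher) or for ICAM1 and NFKB2 (lower). Relative to RELA the groups did overlap for RELB (0.302 to 0.324 in WT and 0.280 to 0.305 in CSE), NFKBIA (0.510 to 0.551 and 0.5004 to 0.521) and NFKBIE (0.169 to 0.199 and 0.187 to 0.202). NFKB1 rose against NFKB2 from 0.0603 ± 0.00458 to 0.0798 ± 0.00216 of its TPM. These are unequal changes between genes. The share of all genes whose groups do not overlap relative to RELA was not computed. On TPM itself the groups did not overlap for 57.4% of all genes tested. With 3 libraries against 3 an exact two-sided permutation test of a single ratio cannot go below p = 0.1, so none was used.

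TPM also sets the genes in an order per length. In WT it ran NFKB2, RELA, TNFAIP2, NFKBIA, RELB, ICAM1, NFKBIE, NFKB1, BIRC3 and TNFAIP3, from 174 to 6.90 TPM. Among neighbours the ranges of the 3 libraries overlapped for RELA with TNFAIP2 and for ICAM1 with NFKBIE. In CSE, TNFAIP2 stood above RELA with no overlap, and NFKB1 (12.9 TPM) stood above ICAM1 (11.2) and level with NFKBIE (12.8), whose range it overlapped. BIRC3 and TNFAIP3 were the lowest in both groups.

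For TNFAIP3, the gene with the largest called change, the 3 most similar of 12783 other tested genes were HARBI1, AGFG2 and GRIP2. Likeness was the mean absolute difference over the 6 libraries of log2(TPM + 1) values relative to the WT mean, which was 0.031 for HARBI1, 0.043 for AGFG2 and 0.047 for GRIP2. AGFG2 went from 14.3, 14.6 and 14.4 TPM in WT to 9.72, 9.74 and 10.2 in CSE, and the other two lay below 5 TPM.

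Of the remaining Rel and IkB family genes, BCL3 rose, REL and NFKBIB fell, and NFKBID and NFKBIZ were not called. BCL3, a nuclear IkB that pairs with the products of NFKB1 and NFKB2, went from 34.6, 32.98 and 34.5 TPM in WT to 43.6, 44.0 and 39.4 in CSE (limma log2 fold change 0.31 with SE 0.05, adjusted p = 3.19e-05). REL, the fifth subunit gene, was at 8.83, 9.07 and 9.04 TPM in WT and at 7.78, 8.17 and 5.89 in CSE (limma log2 fold change -0.28, adjusted p = 0.00827). CSE replicate 3 was far below the other CSE libraries, and without it the value was -0.15 (limma adjusted p = 0.0326). The REL call was lost without the filter (0.178). NFKBIB, an IkB gene like NFKBIA, went from 50.9 ± 3.18 to 43.8 ± 2.04 TPM (limma log2 fold change -0.21, adjusted p = 0.00135), a call lost without the filter (0.0611). NFKBID had a log2 fold change of -0.17 (limma adjusted p = 0.0796) and NFKBIZ of -0.13 (0.102). Both passed as lower without CSE replicate 1 (-0.23 with limma adjusted p = 0.0365 and -0.20 with 0.0328) and when mitochondrially encoded genes were dropped (0.0282 and 0.0285), and both were smaller without CSE replicate 3 (-0.11 and -0.073).

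Around the 10 genes, 140 further pathway genes were listed by function with earlier results of these data known, and 139 had a row in the table. Of the 100 tested, limma called 17 higher and 35 lower and did not call 48, with a median log2 fold change of -0.027. The background for these counts, and for the counts by role below, is the 24.5% higher and 25.6% lower over all genes tested.

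The kinases had 5 of 16 higher, 5 lower and 6 not called, against 24.5% higher and 25.6% lower over all genes tested. CHUK, an IkB kinase subunit needed for the non-canonical route, fell from 65.3 ± 0.804 to 48.7 ± 1.02 TPM (limma log2 fold change -0.41, adjusted p = 5.87e-08). MAP3K14, the kinase that starts this route, went the other way, from 15.9 ± 0.211 to 19.4 ± 1.56 TPM (limma log2 fold change 0.27, adjusted p = 0.000697). IRAK1, a kinase below the IL-1 and Toll-like receptors, fell from 73.9 ± 2.63 to 52.7 ± 0.716 TPM (-0.48, 8.56e-09), while its relatives IRAK4 (0.33, 0.000251) and IRAK2 (0.29, 0.000448) rose. RIPK2, the kinase of the NOD receptors, rose from 31.7 ± 2.58 to 44.4 ± 0.715 TPM (0.48, 2.03e-07). MAP3K8 was narrowly called lower (-0.22, limma adjusted p = 0.0482) with overlapping groups, and the call was lost in 10 of its 14 alternatives, among them leaving out WT replicate 1 or 3 or CSE replicate 1 or 3.

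Adaptors and ubiquitin ligases had 1 gene higher, 11 lower and 10 not called of 22 tested, with a median log2 fold change of -0.14. MALT1, a protease and scaffold of the CARD complexes, fell from 46.0 ± 2.57 to 33.6 ± 1.60 TPM (-0.44, limma adjusted p = 3.49e-07). TRAF3, an adaptor of TNF receptor family members, fell from 24.1 ± 0.346 to 18.5 ± 1.15 TPM (-0.36, 1.08e-05). TICAM1, an adaptor of Toll-like receptors, fell by 0.29 on the log2 scale (4.66e-05). MYD88, a further adaptor of these receptors, was the 1 gene called higher (0.14, limma adjusted p = 0.0453), a call lost in 8 of 15 alternatives, among them leaving out any 1 library other than CSE replicate 3.

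Of 18 further negative regulators tested, 2 were higher, 5 lower and 11 not called. PDLIM2, which directs nuclear RELA to degradation, rose from 3.76 ± 0.390 to 5.38 ± 0.248 TPM (0.42, limma adjusted p = 0.000155), and ZC3H12A, a nuclease that cuts cytokine mRNAs, rose by 0.24 on the log2 scale (0.00263). OTULIN, which removes linear ubiquitin chains, fell from 22.2 ± 0.145 to 18.0 ± 1.12 TPM (-0.29, 0.000141). NKIRAS1 (-0.20, 0.0108) and the ubiquitin ligase gene ITCH (-0.16, 0.0089) fell too, the first not without WT replicate 2 (0.0609) and the second not without the filter (0.0973).

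Of 17 receptors tested, 4 were higher, 3 lower and 10 not called. TNFRSF1A, the main TNF receptor of epithelial cells, rose from 59.8, 56.4 and 55.8 TPM in WT to 77.7, 80.7 and 76.4 in CSE (limma log2 fold change 0.44, adjusted p = 3.5e-08). TLR1 (0.32, 0.00789) and IL17RC (0.20, 0.00383) also rose. TNFRSF25, a death-domain receptor, fell from 32.9 ± 1.55 to 23.8 ± 0.697 TPM (-0.45, 2.63e-07), and IL18R1, a chain of the IL-18 receptor, fell 2.34-fold from 3.27 ± 0.229 to 1.40 ± 0.238 TPM (-0.84, 2.82e-07). IL1R1 fell by 0.22 on the log2 scale (0.0107), but not without WT replicate 2 (0.0578).

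Of 20 further targets tested, 3 were higher, 9 lower and 8 not called, with a median log2 fold change of -0.19. CXCL8, a chemokine that attracts neutrophils, fell 1.99-fold, from 13.0, 13.7 and 12.0 TPM in WT to 5.51, 7.13 and 6.79 in CSE (limma log2 fold change -0.90, adjusted p = 4.28e-09). LAMB3, a laminin chain of the basement membrane, fell from 120 ± 4.93 to 79.2 ± 1.01 TPM (-0.59, 2.2e-10), and the complement gene C3 from 2.61 ± 0.212 to 1.51 ± 0.151 TPM (-0.52, 8.54e-05). IER3, an early response gene of survival, rose from 1236 ± 53.9 to 1606 ± 35.0 TPM (0.38, 6.51e-08), and the ephrin gene EFNA1 (0.26, 0.00103) and the stress gene GADD45B (0.23, 0.000915) rose as well, neither of which was called without the filter (0.0586 and 0.0764). Further targets thus held falls and rises, as did the 10 genes.

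**Figure D3:**
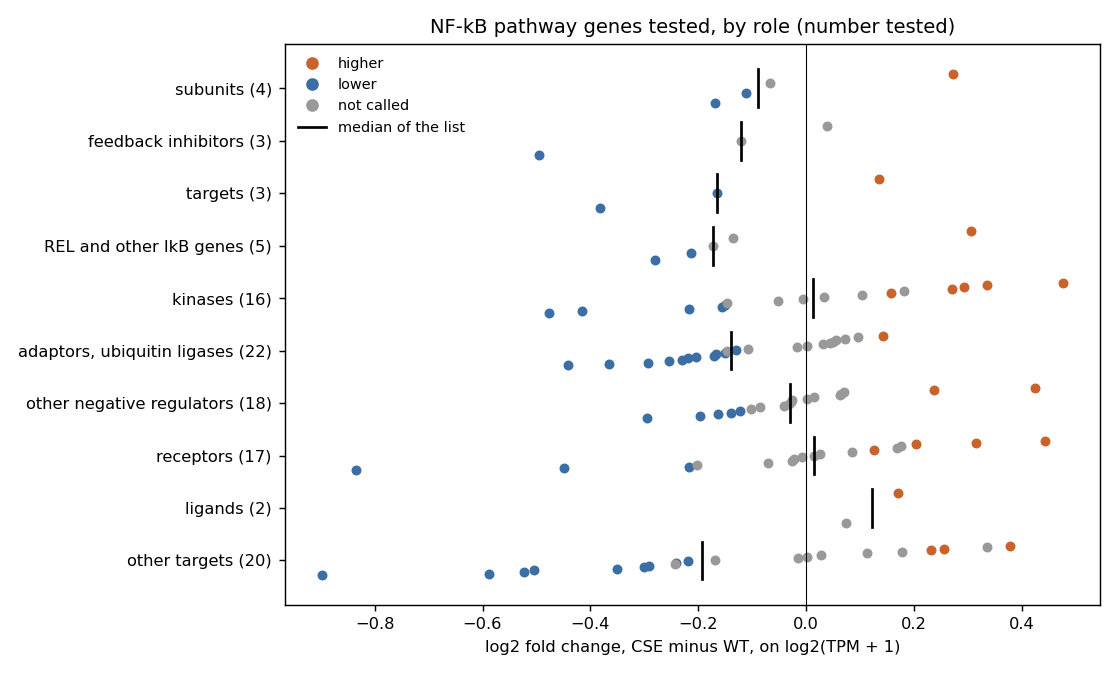
Log2 fold change (CSE minus WT, on log2(TPM + 1)) of the 10 genes and the 100 other NF-kB pathway genes tested, 1 point per gene, grouped by role with the number tested in brackets and a bar at each median. Every role with at least 3 genes tested held points on both sides of 0, and adaptors with ubiquitin ligases (1 higher, 11 lower) and other targets (3 higher, 9 lower) had more calls to the left. Over all genes tested 24.5% were called higher and 25.6% lower.

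TNFAIP3, BIRC3, RELB and NFKB1 kept their direction and their call in all 15 alternative settings run. TNFAIP3 ranged from -0.57 to -0.46, BIRC3 from -0.45 to -0.35, RELB from -0.23 to -0.15 and NFKB1 from 0.22 to 0.31. The calls of NFKB2, TNFAIP2 and ICAM1 depended on single libraries, as given beside each. With mitochondrially encoded genes left out, 6832 of 12780 genes were called, and the share of all calls that were higher went from 48.9% to 34.3%. The median log2 fold change of all genes went from -0.0039 to -0.058. In that setting 1 of the 10 genes was called higher (NFKB1) and 7 lower, RELA and NFKBIA among them. The share of mitochondrially encoded genes differed between the groups, and its part in these results was not tested beyond that setting.

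**Figure D4:**
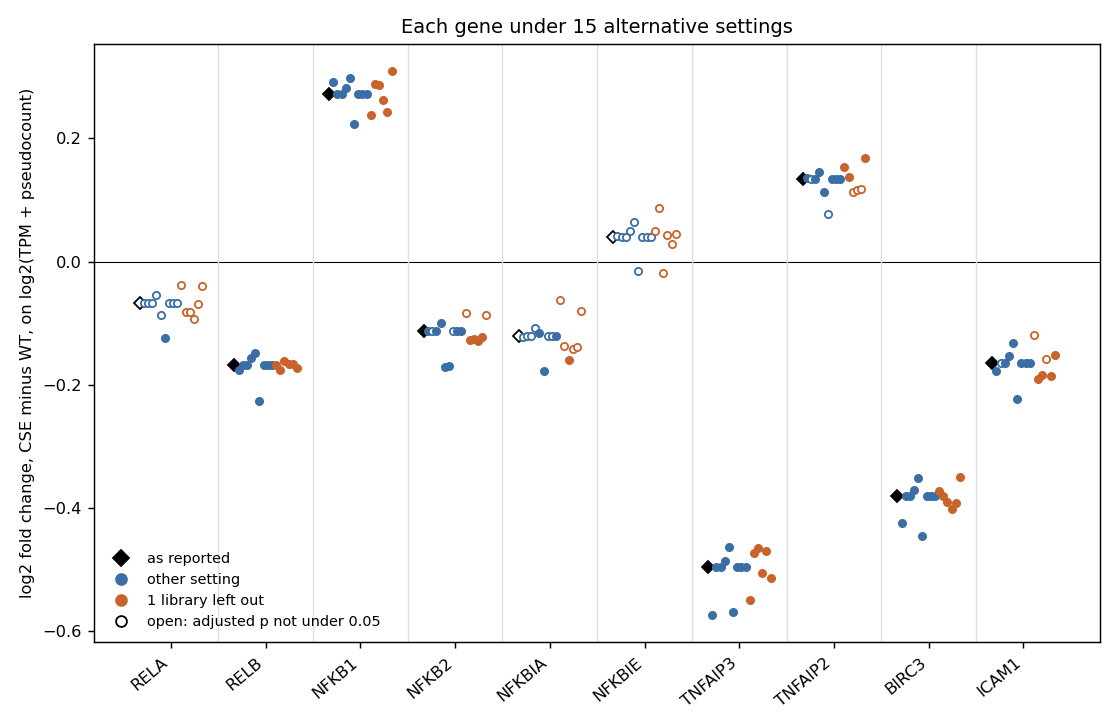
Log2 fold change (CSE minus WT) of each gene as reported (diamonds) and under 15 alternative settings (circles, orange where 1 library was left out), filled where the limma adjusted p was under 0.05. TNFAIP3, BIRC3, RELB and NFKB1 stay filled throughout, and NFKBIE crosses 0.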

How the data were processed

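RNA-seq of 3 WT and 3 CSE samples of HCT116 was used. Per the labels' protocols, these were mRNA libraries made from total RNA. GRCh38, HISAT2 2.0, Trimmomatic 0.36, FastQC 0.11.2 and bedtools 2.26.0 are named, without roles, per the submitters' processing notes. Which counter, annotation and strand setting were used is not given in the sources used here. TPM values with 2 decimals are what the authors deposited. TPM keeps no depth, so no count model, interval on counts or detection floor was used, and 0 sample columns were left unmapped. RELA, TNFAIP3 and ICAM1 are overlapped on the opposite strand by non-coding genes in GENCODE 29, whose reads cannot be told apart if strand was not used.

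Symbols were matched for 20148 of 20263 genes, and gene positions are from GENCODE 29. Genes with at least 1 TPM in at least 3 libraries (12793) were compared on log2(TPM + 1) with limma 3.58.1 in R 4.3.3 (no covariate, trended empirical Bayes, Benjamini-Hochberg adjustment over all genes, threshold 0.05). The log2(TPM + 1) scale understates changes of low genes. The procedure was tested on simulated data with independent noise and few changed genes. Such data do not cover widespread changes or a shift in the mitochondrial share. Members and lists were chosen with earlier results of these data known. Named beside the members are all other Rel and IkB genes and, per list, up to 3 called rises and 3 called falls with a mean of at least 1 TPM in the higher group. MAP3K14 was added for its role in the non-canonical route after its values were seen, and its own change was not followed through the alternatives. Promoters are from RefSeq (GRCh38.p14). Tried as alternatives were leaving out each library, leaving out mitochondrially encoded genes, quantile normalization, median-of-ratios scaling, a filter at a mean TPM of 5, no filter, a pseudocount of 0.1, a robust prior, no variance trend and a replicate block.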

Additional observations from a re-analysis of the deposited data

How the results depend on the processing

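Of the 12793 genes tested limma called 6407, and between 5463 and 6573 with 1 library left out. Of the 10 NF-kB genes 7 were called. With 1 library left out, between 5 (without WT replicate 1 or CSE replicate 1) and 7 were called. Without the filter on low values 4 were called (NFKB1, TNFAIP3, BIRC3 and RELB). In that setting 4846 of 20263 genes were called, so calls were fewer over all genes too. Of the other pathway genes 52 were called, and between 40 and 54 with 1 library left out. NFKBIE turned negative with mitochondrially encoded genes left out (-0.015) and without WT replicate 3, and its log2 fold change lay between -0.019 and 0.088 with 1 library left out. The median of all genes moved to -0.058 with mitochondrially encoded genes left out and stayed between -0.019 and 0.013 in the other settings. The labels do not say whether the replicate numbers pair the samples. Deviations of same-numbered libraries from their group means correlated at -0.071, 0.015 and -0.088 across genes. With so few libraries per group these values cannot decide whether samples were paired. With the replicate block 6537 genes and 8 of the 10 NF-kB genes were called, the added one being NFKBIA (limma adjusted p = 0.0408), and 53 other pathway genes. Depth limits cannot be given from TPM.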

Other observations

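Most genes of the NF-kB ligands were at low levels. Of 14 ligand genes 12 were not tested because they missed the filter on low values. Of these 12, TNFSF13B was the highest, with a mean of 0.98 TPM in WT and 0.8 in CSE. TNF had a mean of 0.07 TPM in WT and 0.033 in CSE, IL1B of 0.053 and 0.08, and CD40LG was listed at 0 in every library. IL18, which encodes a cytokine of epithelial cells, was abundant and rose from 168 ± 4.15 to 189 ± 4.06 TPM (limma log2 fold change 0.17, adjusted p = 0.000866), and TNFSF12 was at 8.11 ± 0.471 and 8.57 ± 0.142 TPM (0.073, 0.367).

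Of the 39 further targets matched, 19 were not tested for the same reason. Among them IL6 (0.06 and 0.087 TPM), CCL20 (0.40 and 0.27) and CCL2 (0.053 in WT and listed at 0 in CSE) were at low levels in both groups, and CXCL6, CXCL10 and SELE were listed at 0 in every library.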
